A study of Mus musculus with 12 samples.

Results

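The genes described here are 10 genes of brain blood vessels and of the signals that make vessels grow: Cldn5, Slc2a1, Abcb1a, Pecam1 and Ly6c1 of the endothelial cell itself, the ligand Vegfa, the endothelial receptors Flt1, Kdr and Tek, and Pdgfrb of pericytes. They were chosen by name, and every array probe annotated to 1 of these symbols was taken, which gave 20 probes for 10 genes among 56605 probes and 27308 gene symbols. Hypothalamus RNA of 12 male C57BL/6 mice was hybridised to single-colour Agilent arrays, with 3 arrays in each of 4 groups. WT were wild-type littermates without exercise, KO were mice homozygous for a deletion of 20 bp in Asmt made with Cas9 in zygotes and backcrossed for 3 generations, the exercised WT group were wild-type mice trained to swim, and KE were Asmt-knockout mice trained to swim. All mice are labelled as 6 to 7 weeks old, which the methods give as the age when training began, and all knockout mice trace to founders carrying the same deletion. Values are normalized log2 signals, so that 1 unit is a fold of 2.

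Blood vessels of the brain are lined by endothelial cells that are sealed to each other by tight junctions and that carry dedicated transporters and efflux pumps, which together form the blood-brain barrier. Their growth and upkeep depend on vascular endothelial growth factor, which binds tyrosine kinase receptors on the endothelial surface, on the angiopoietin receptor, and on pericytes that are held to the vessel by platelet-derived growth factor signalling. The hypothalamus contains barrier vessels as well as leaky vessels at its base, where hormones enter and leave the blood.

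Some facts of the whole series bear on every value below. The single Asmt probe was well above background on 0 of 12 arrays, with signals of 1.83 to 2.49, so the genotype could not be checked on these arrays. All 12 hypothalamic peptide genes examined were well above background on every array of every group. The share of spots called well above background was 61.6% to 67.9%. The arrays lay on 2 slides: slide 1 held the 3 WT arrays with KO replicates 1 and 2, and slide 2 held KO replicate 3 with all exercised WT and KE arrays. The first principal component, with 48.5% of the variance, separated the slides, with slide 1 between -47.4 and -29.5 and slide 2 between 19.3 and 40.2. WT and the swimming groups therefore share no slide, and for them slide and group cannot be told apart except through the KO arrays. When slide was added to the model as a block, the slide difference came from KO replicate 3 against KO replicates 1 and 2. Block values for the swimming groups against WT therefore rest on KO replicate 3 as the only KO array of slide 2. Those for KE against KO set KE against KO replicate 3 alone. The methods describe the wild-type mice as littermates of the knockout mice. Nothing in the sources says which animals shared a litter or a swimming session, so p-values measure the spread between the arrays of these mice. In the fit without a slide block, that spread includes the slide difference within KO, whose arrays lay on both slides.

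All 10 genes were detected in the hypothalamus of every mouse. Each had at least 1 probe well above background on all 12 arrays, and 15 of the 20 probes were tested. The 5 others, 1 of Abcb1a, 1 of Flt1, 2 of Kdr and 1 of Vegfa, were well above background on 0 or 1 arrays, and no fold is given for them. The 27 other endothelial markers examined (Cdh5, Emcn and Tie1 among them) were all tested, and 25 of them were well above background on all 12 arrays. For each gene with several probes, the brightest tested probe represented it.

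Within groups the vascular genes varied about as much as all tested probes did. The range of a gene's representative probe over the 12 arrays ran from 0.33 for Pecam1 and Vegfa to 0.70 for Abcb1a, a fold of 1.63 between the highest and the lowest mouse. The median range over the 10 genes was 0.41, beside 0.52 over all 35230 tested probes, and the median spread within groups was an SD of 0.13 beside 0.14. Slc2a1, Cldn5, Ly6c1 and Abcb1a had ranges above 0.52, and a further tested probe of Flt1 reached 0.79. In none of the comparisons did a probe of the 10 genes reach an adjusted p under 0.05 (limma, Benjamini-Hochberg over all tested probes), and none met the study's screening criterion (a fold of 2 or more and p no higher than 0.05, unadjusted), which 0.227% of all tested probes met in KO against WT, 2.19% in exercised WT against WT, 1.21% in KE against KO, 0.25% in KE against exercised WT, 2.74% in KE against WT and 0.602% for the interaction. The plot of the values by array shows how close the groups lay.

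**Figure D1:**
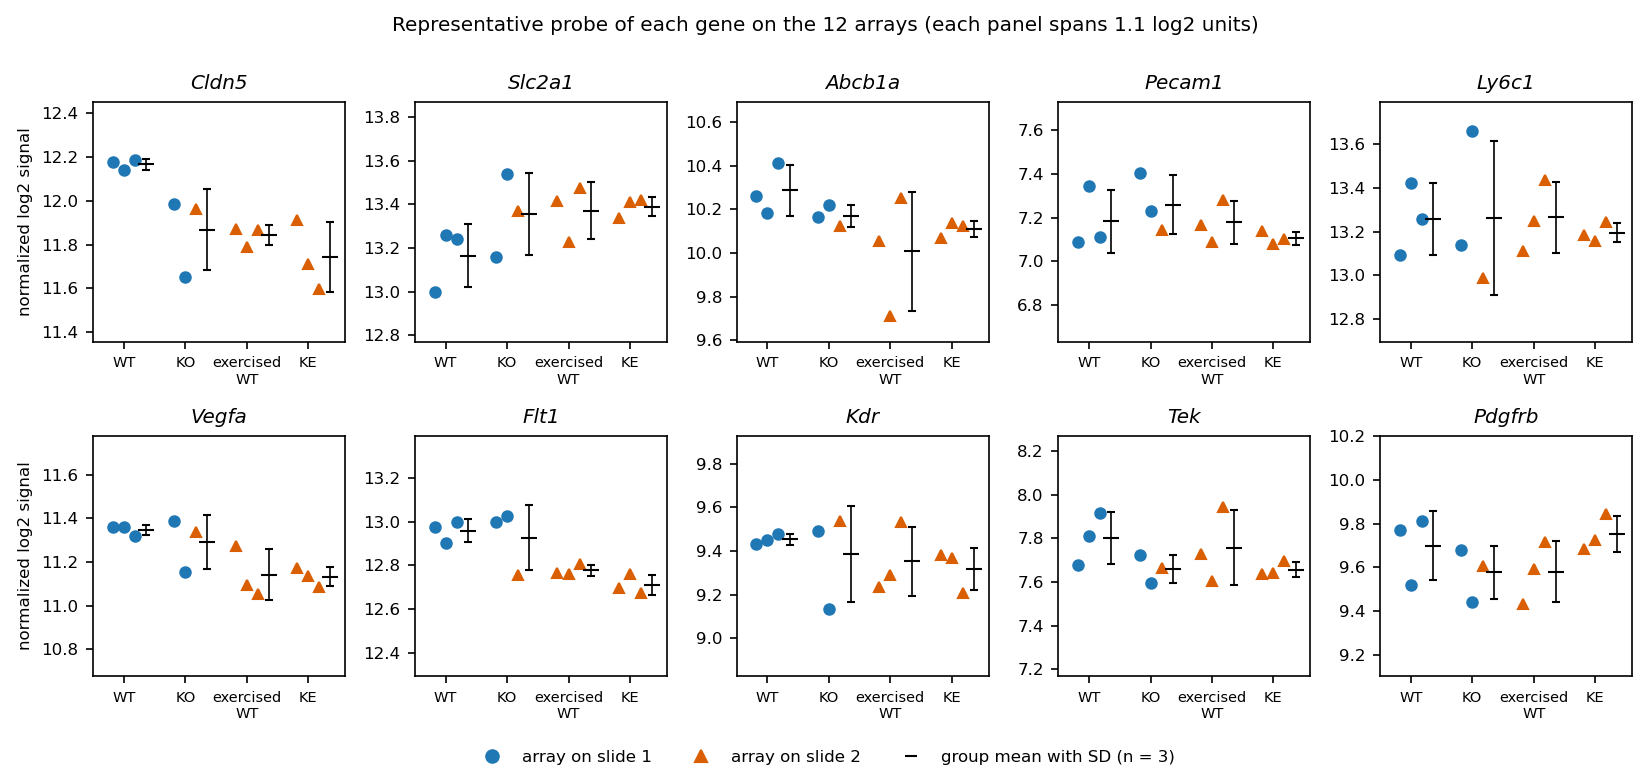
Normalized log2 signal (y axis) of the representative probe of each of the 10 genes on the 12 arrays by group (x axis), with the group mean and SD (n = 3) beside the points; circles are arrays on slide 1 and triangles arrays on slide 2. All panels span the same height. Cldn5 is the gene in which the 3 WT arrays, at 12.14 to 12.19, lie above the other 9, and Flt1 is the gene that divides by slide.

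The tight junction gene Cldn5 was the 1 gene of the 10 with every WT array on the same side of every other array. Claudin-5 is the strand-forming protein that seals the junctions between brain endothelial cells. Its probe lies at chr16:18778046-18778105 on the plus strand of build mm9, and the middle 30 of its 60 bases, at chr16:18778061-18778090, are shown because the largest differences among the 10 genes rest on this oligonucleotide alone.

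Cldn5: gggggcactagatgctgccttaatgtccag

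The Cldn5 signal was 12.18, 12.14 and 12.19 on the WT arrays and 11.99, 11.65 and 11.96 on the KO arrays. On the exercised WT arrays it was 11.87, 11.79 and 11.87, and on the KE arrays 11.91, 11.71 and 11.60. Every KO, exercised WT and KE array was thus below every WT array, and the KO, exercised WT and KE values overlapped each other. Of all tested probes, 1.93% had the 3 WT arrays above the other 9, and 0.993% had them below.

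The log2 difference in Cldn5 between KO and WT was -0.30 ± 0.10 (SE), a fold of 1.23, with a 95% interval of -0.52 to -0.08 (limma, adjusted p = 0.846). For exercised WT against WT it was -0.33 ± 0.10 (limma, adjusted p = 0.104). For KE against WT it was -0.43 ± 0.10, a fold of 1.34 (limma, adjusted p = 0.0622). None of these passed the adjustment. With slide as a block the differences were -0.35 for KO, -0.47 for exercised WT and -0.57 for KE (limma, adjusted p of 0.834, 0.796 and 0.833). Within slide 1, where KO replicates 1 and 2 were set against the 3 WT arrays, the difference was -0.35 ± 0.11, which did not pass the adjustment. The block value for KO sets the same arrays against each other, so the within-slide value is not a further check. KO replicate 2 was the lowest KO array, and without it the difference between KO and WT was -0.19 ± 0.086 (limma, adjusted p = 0.570). For KE against KO the Cldn5 difference was -0.13 ± 0.10, with -0.23 when KO replicate 2 was left out and -0.22 ± 0.14 with slide as a block, and for KE against exercised WT it was -0.10 ± 0.10. In bulk tissue, a lower signal from fewer endothelial cells and one from less RNA per cell cannot be told apart.

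**Figure D2:**
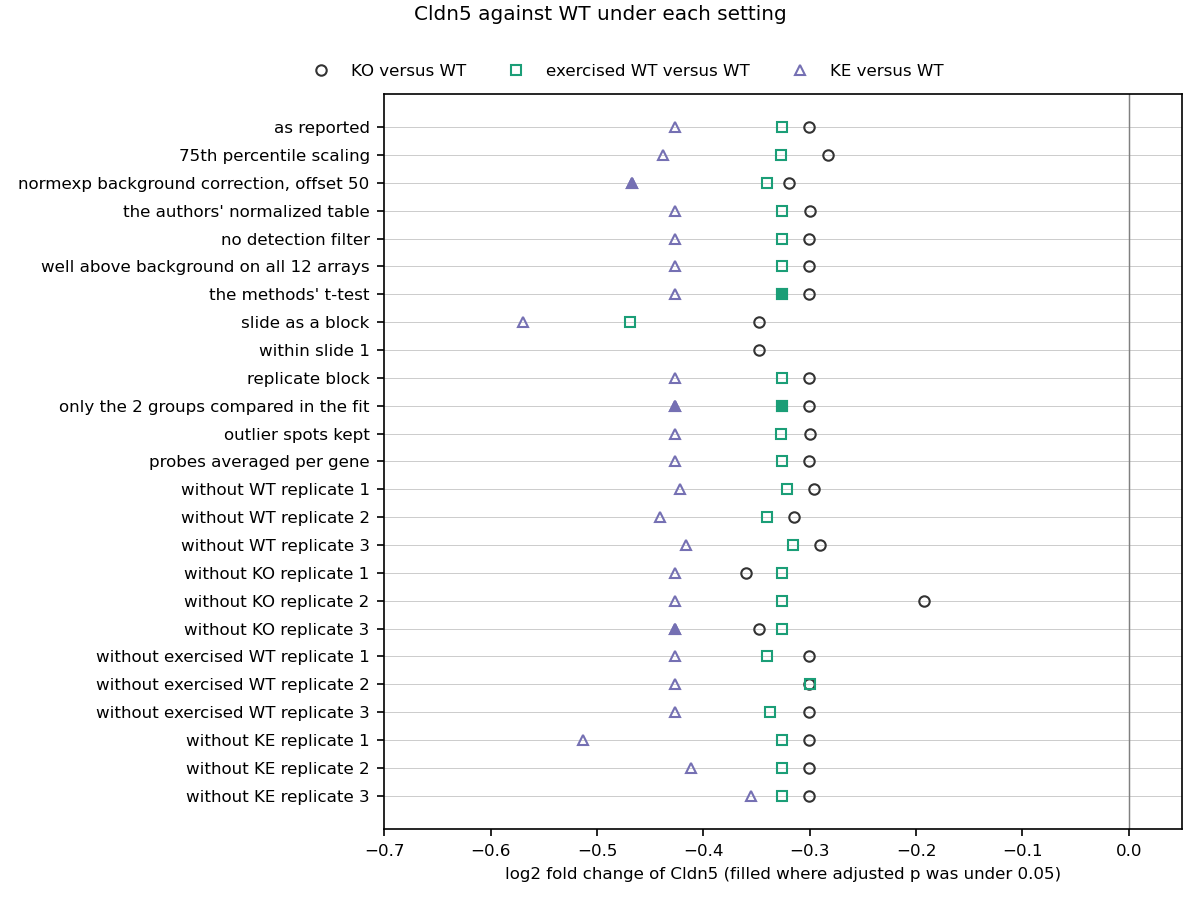
Log2 fold change of Cldn5 (x axis) for KO, exercised WT and KE against WT under each processing or model setting (rows); filled symbols mark an adjusted p under 0.05 and open symbols a higher one. All values are below 0, from -0.57 to -0.19, and those of KO against WT are open under every setting.

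The barrier transporters of the list were Slc2a1 and Abcb1a. Slc2a1 encodes the glucose transporter GLUT1, through which glucose crosses the brain endothelium. Its signal was 13.00, 13.26 and 13.24 in WT, 13.16, 13.54 and 13.37 in KO, 13.41, 13.23 and 13.47 in exercised WT, and 13.34, 13.41 and 13.42 in KE. The lowest array was a WT array, and every KE array lay above every WT array, while KO and exercised WT overlapped WT. The log2 difference was 0.19 ± 0.11 for KO, 0.21 ± 0.11 for exercised WT and 0.22 ± 0.11 for KE against WT (limma, adjusted p of 0.846, 0.252 and 0.191). With slide as a block the KE difference was 0.20 ± 0.20.

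Abcb1a encodes P-glycoprotein, the pump that returns drugs from the endothelium to the blood. Its signal was 10.26, 10.18 and 10.41 in WT, 10.16, 10.22 and 10.12 in KO, 10.06, 9.71 and 10.25 in exercised WT, and 10.07, 10.14 and 10.12 in KE. The lowest array was exercised WT replicate 2, and every KE array was below every WT array. The log2 difference between exercised WT and WT was -0.28 ± 0.12 (limma, adjusted p = 0.175), and it was -0.13 without exercised WT replicate 2. With slide as a block it was -0.21 ± 0.22 (limma, adjusted p = 0.873). The Abcb1a difference between KE and WT was -0.18 ± 0.12, and -0.11 ± 0.22 with the block. The closely related Abcb1b, whose protein is also a multidrug pump, had signals of 7.25 to 7.68 and differed between KO and WT by -0.13 (limma, adjusted p = 0.846). Whether its transcripts also bind the Abcb1a probe was not tested.

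Pecam1 encodes the adhesion molecule CD31 at the contacts between endothelial cells. Its signal was 7.09, 7.35 and 7.11 in WT, 7.41, 7.23 and 7.14 in KO, 7.17, 7.09 and 7.28 in exercised WT, and 7.14, 7.08 and 7.10 in KE. The groups overlapped except that every KE array was just below every KO array, with a log2 difference of -0.15 ± 0.090 that was -0.036 ± 0.12 with slide as a block (limma, adjusted p of 0.335 and 0.970).

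Ly6c1 encodes a surface protein that is abundant on brain endothelium and also found on monocytes. Its brighter probe gave 13.09, 13.42 and 13.26 in WT, 13.14, 13.66 and 12.99 in KO, 13.11, 13.25 and 13.43 in exercised WT, and 13.18, 13.16 and 13.24 in KE. KO replicates 2 and 3 were the highest and the lowest of all 12 arrays. The largest difference between groups was -0.069 ± 0.16, for KE against exercised WT. Adding slide as a block gave Ly6c1 differences of 0.42 ± 0.25 for exercised WT and 0.35 ± 0.25 for KE against WT and 0.21 ± 0.20 for KE against KO, where the last was -0.068 and KE against WT -0.062 without the block. On this probe KO replicate 3 minus the mean of KO replicates 1 and 2, from which the block takes the slide difference, was -0.41. The second probe, 2.3 kb away, ran from 10.60 to 11.23 and also peaked in KO replicate 2. The neighbouring family members Ly6c2, at 12.93 to 13.66, and Ly6a, at 10.85 to 11.53, peaked in the same mouse, and whether the probes of these similar genes bind each other's transcripts was not tested.

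Among the growth factor genes, Vegfa was measured by 3 tested probes. It encodes VEGF-A, the main signal for vessel growth and permeability, which astrocytes and neurons make and endothelial cells receive. The middle 30 bases of the 3 probes are given because the probes did not show the same differences. They lie on the minus strand of chromosome 17 in build mm9, at chr17:46154402-46154431 for the brightest, chr17:46155527-46155556 for the probe 1.1 kb away and chr17:46162391-46162420 for the probe 8.0 kb away.

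Vegfa brightest probe: cactagcttgtcctgagaagatatttaatt
Vegfa probe 1.1 kb away: ttcttatatctgctgctaaatcgccaagcc
Vegfa probe 8.0 kb away: agtaccccgacgagatagagtacatcttca

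The brightest Vegfa probe gave 11.36, 11.36 and 11.32 in WT, 11.39, 11.15 and 11.34 in KO, 11.28, 11.10 and 11.05 in exercised WT, and 11.17, 11.14 and 11.09 in KE. All 6 swimming mice were below all 3 WT mice, and KO replicate 2 lay within the range of the swimming mice. The log2 difference was -0.20 ± 0.076 for exercised WT and -0.21 ± 0.076 for KE against WT (limma, adjusted p of 0.141 and 0.100), and -0.16 ± 0.076 for KE against KO (limma, adjusted p = 0.256). With slide as a block these were -0.27 ± 0.14, -0.28 ± 0.14 and -0.21 ± 0.11 (limma, adjusted p of 0.816, 0.992 and 0.624).

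The probe 8.0 kb away gave 7.02, 6.73 and 6.74 in WT, 7.14, 6.82 and 6.75 in KO, 6.70, 6.67 and 6.49 in exercised WT, and 6.51, 6.42 and 6.54 in KE. Here every KE array was below every KO and every WT array, and every exercised WT array was below every WT array, although that difference of -0.21 ± 0.11 was 0.011 ± 0.19 with slide as a block. The difference between KE and KO, -0.41 ± 0.11, was the widest of any tested probe of the 10 genes in that comparison (limma, adjusted p = 0.151), and it was -0.26 ± 0.15 with slide as a block (limma, adjusted p = 0.675). The probe 1.1 kb away overlapped in every comparison, with differences from -0.14 for exercised WT against WT to 0.062 for KE against exercised WT. Under the slide block this probe had 0.061 ± 0.13 for exercised WT and 0.12 ± 0.13 for KE against WT, which was -0.082 without the block.

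The receptors were Flt1 and Kdr, which bind VEGF-A, and Tek, which binds angiopoietins. Flt1 encodes VEGFR1, which binds VEGF-A tightly and, in its soluble form, withholds it from other receptors. The array carries a bright probe for the reference transcript and a pair of probes 75.1 and 76.9 kb from it that are annotated to another transcript model. Their middle 30 bases on the minus strand of chromosome 5 (mm9) lie at chr5:148373806-148373835, chr5:148448903-148448932 and chr5:148450703-148450732, and they are shown because the first and the last differed between slides in opposite directions.

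Flt1 brightest probe: atcgggattctctggttctgcttaaagact
Flt1 probe 75.1 kb away: ctgaactgaactgagcatgcaaagtccatt
Flt1 probe 76.9 kb away: accacacaaagtcatgtcaaacattaaagg

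The brightest Flt1 probe gave 12.98, 12.90 and 13.00 in WT, 13.00, 13.02 and 12.75 in KO, 12.76, 12.76 and 12.81 in exercised WT, and 12.70, 12.76 and 12.67 in KE. The 5 arrays of slide 1 lay between 12.90 and 13.02 and the 7 of slide 2 between 12.67 and 12.81, so KO replicate 3 sided with the swimming mice of its slide and not with its own group. Of all tested probes, 11.4% were lower on every slide 2 array than on every slide 1 array, and 10.4% higher. This Flt1 probe was the only tested probe of the 10 genes to divide by slide. The log2 difference between KE and KO was -0.22 ± 0.073 (limma, adjusted p = 0.174) and became -0.044 ± 0.065 with slide as a block. For exercised WT against WT it was -0.18 ± 0.073 and became 0.075 ± 0.082, and for KE against WT -0.25 ± 0.073 and 0.0074 ± 0.082. Within slide 2, KE differed from exercised WT by -0.067 ± 0.048 (limma, adjusted p = 0.606).

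The probe 75.1 kb away stayed between 10.41 and 10.68 on all 12 arrays. The probe 76.9 kb away gave 7.67, 7.93 and 7.79 in WT, 7.46, 7.78 and 8.18 in KO, 7.95, 7.92 and 8.25 in exercised WT, and 7.96, 7.96 and 7.99 in KE. Its KO replicate 3 was 0.56 above the mean of KO replicates 1 and 2, whereas on the brightest probe the same difference was -0.26. The difference between KE and WT on this probe was 0.17 ± 0.16, and -0.39 ± 0.20 with slide as a block.

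**Figure D3:**
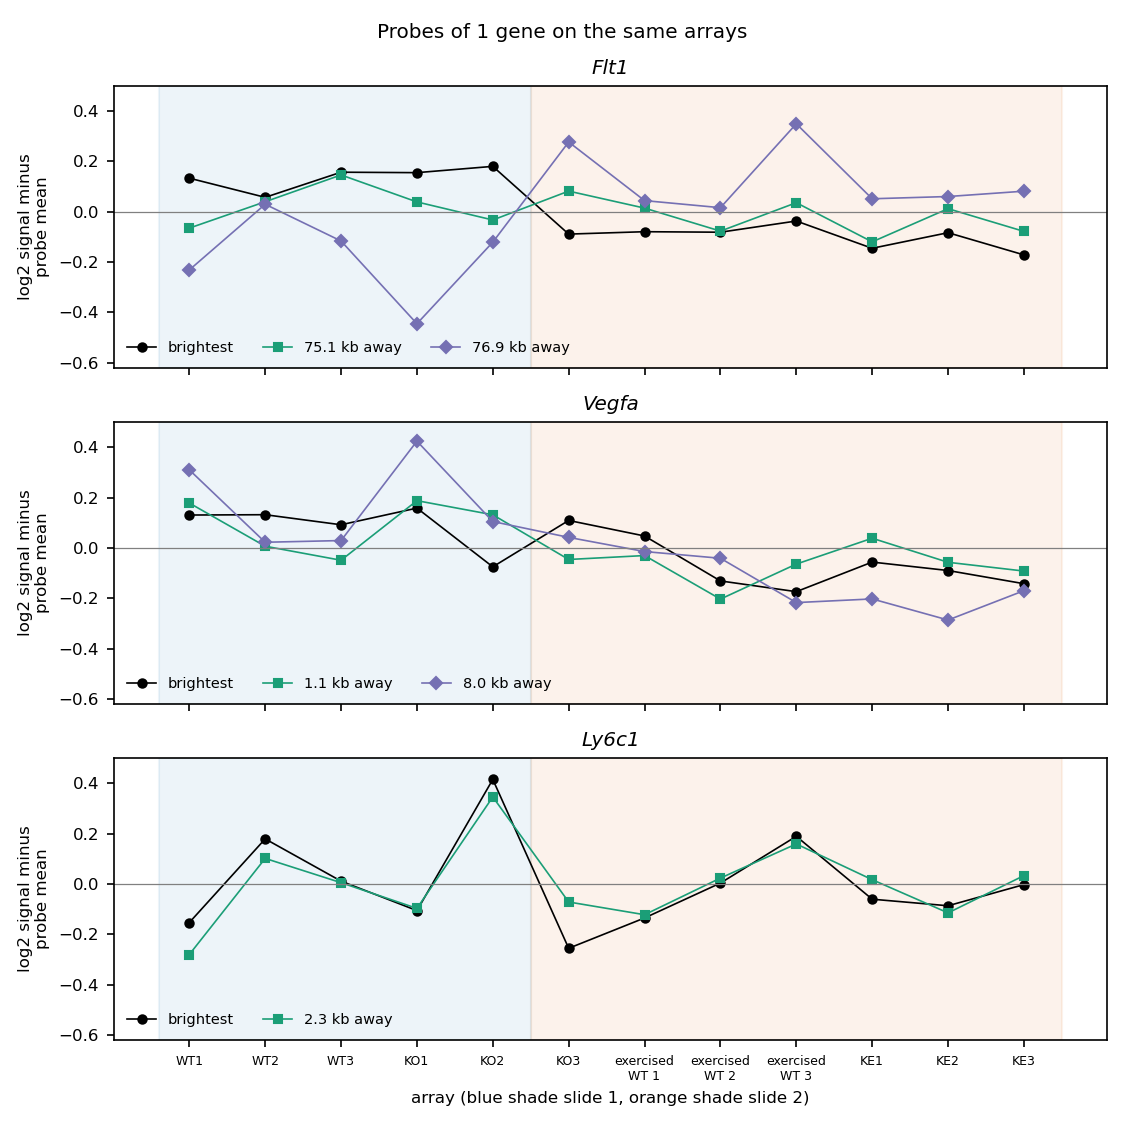
Log2 signal of each tested probe of Flt1, Vegfa and Ly6c1 minus that probe's mean over the 12 arrays (y axis), by array (x axis); the blue shade covers slide 1 and the orange shade slide 2. The brightest Flt1 probe is lower on every slide 2 array, the probe 76.9 kb away is mostly higher there, and the pair of Ly6c1 probes both peak in KO replicate 2.

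Kdr encodes VEGFR2, the receptor that carries most of the growth signal of VEGF-A. Its signal was 9.43, 9.45 and 9.48 in WT, 9.49, 9.13 and 9.54 in KO, 9.23, 9.29 and 9.53 in exercised WT, and 9.38, 9.37 and 9.21 in KE. All KE arrays were below all WT arrays, with a log2 difference of -0.14 ± 0.11 (limma, adjusted p = 0.437). The Kdr difference with slide as a block was -0.36 ± 0.19 for KE and -0.32 ± 0.19 for exercised WT against WT, the latter -0.10 without it. The Kdr probe that the annotation describes as a soluble form was above background on 0 of 12 arrays.

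Tek encodes TIE2, the angiopoietin receptor that keeps vessels quiescent. Its signal was 7.68, 7.81 and 7.92 in WT, 7.72, 7.60 and 7.66 in KO, 7.73, 7.60 and 7.94 in exercised WT, and 7.64, 7.64 and 7.70 in KE. The groups overlapped in every comparison, and the largest difference was -0.15 ± 0.090, for KE against WT.

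The pericyte receptor Pdgfrb, which receives platelet-derived growth factor B from the endothelium, had the highest value of the 10 genes for KE against KO. Its signal was 9.77, 9.52 and 9.81 in WT, 9.68, 9.44 and 9.61 in KO, 9.43, 9.59 and 9.72 in exercised WT, and 9.69, 9.73 and 9.84 in KE. Every KE array was above every KO array, by 0.17 ± 0.10 on average, while exercised WT differed from WT by -0.12 ± 0.10. The interaction of swimming with genotype was 0.29 ± 0.14 (limma, adjusted p = 0.659), the largest among the 10 genes, and 0.31 ± 0.16 with slide as a block.

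Taken by comparison, knockout without swimming (KO against WT) gave 0 of 15 probes with an adjusted p under 0.05, where 0% of all tested probes had one. At an unadjusted p under 0.05 there was 1 of 15, Cldn5, beside 5.47% of all tested probes, and groups did not overlap for the same 1 probe, beside 8.63%. The methods' t-test gave 0 probes at that level, beside 1237 of 35230 tested probes. The median log2 difference over the 10 genes was -0.06, from -0.30 for Cldn5 to 0.19 for Slc2a1, beside -0.01 over all tested probes. The 95% intervals of all 10 genes reached at most a fold of 1.44 in either direction, that of Cldn5, and 1.51 with slide as a block, also for Cldn5.

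Swimming in the wild type (exercised WT against WT) gave 0 of 15 probes with an adjusted p under 0.05, and 0% over all tested probes. At an unadjusted p under 0.05 there were 4 of 15, all lower (Cldn5, Abcb1a, Flt1 and Vegfa), beside 25.9% of all tested probes. Groups did not overlap for 4 probes, beside 37.6%. The methods' t-test gave 3 probes before and 1 (Cldn5) after adjustment, beside 9201 and 1620 of 35230 tested probes. The median over the 10 genes was -0.11, from -0.33 to 0.21, beside -0.04, and with slide as a block 1 probe (Cldn5) had an unadjusted p under 0.05, beside 6.17%. Summed signal of 6 red blood cell genes was 181918 to 228492 in WT, 126752 to 248716 in KO, 147718 to 183271 in exercised WT and 138971 to 178965 in KE, with all 6 well above background in every group, and its part in these differences was not tested.

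Swimming in the knockout (KE against KO) gave 0 of 15 probes with an adjusted p under 0.05, beside 0.0199% of all tested probes. At an unadjusted p under 0.05 there were 2 of 15, the brightest Flt1 probe and the Vegfa probe 8.0 kb away, beside 21.1%, and with slide as a block 0 of 15, beside 9.06%. The methods' t-test gave 1 before and 0 after adjustment, beside 4486 and 0 of 35230 tested probes. Groups did not overlap for 3 probes, those of Pecam1 and Pdgfrb and the Vegfa probe 8.0 kb away, beside 21.5%. The median over the 10 genes was -0.07, beside -0.04 over all tested probes, and the widest 95% interval, that of Ly6c1, reached a fold of 1.34. With slide as a block the widest, again that of Ly6c1, reached a fold of 1.58.

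Knockout in swimming mice (KE against exercised WT) was the comparison held on 1 slide. No probe had an adjusted p under 0.05 (0 of 15, and 0% over all) or an unadjusted one (0 of 15, beside 6.71%). The same held by the methods' t-test (0 of 15), which gave 3789 of 35230 tested probes before adjustment. Groups did not overlap for 1 probe, the brightest of Flt1, beside 19.6%. The median over the 10 genes was -0.05, beside -0.01, and the widest 95% interval, that of Ly6c1, reached a fold of 1.34.

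For KE against WT, which combines knockout, swimming and slide, 0 of 15 probes had an adjusted p under 0.05 (0% over all) and 4 had an unadjusted one, beside 30.4%. These were Cldn5, the brightest Flt1 probe and the brightest Vegfa probe with the one 8.0 kb away. Under the slide block 1 of 15 had one, Cldn5, beside 4.91%. Groups did not overlap for 8 of 15, beside 44.1%. The methods' t-test gave 4 probes before and 2 after adjustment, the brightest of Flt1 and of Vegfa, beside 11924 and 4916 of 35230 tested probes. For the interaction of swimming with genotype, 0 of 15 had an adjusted p under 0.05 (0% over all) and 0 an unadjusted one, beside 7.76%.

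**Figure D4:**
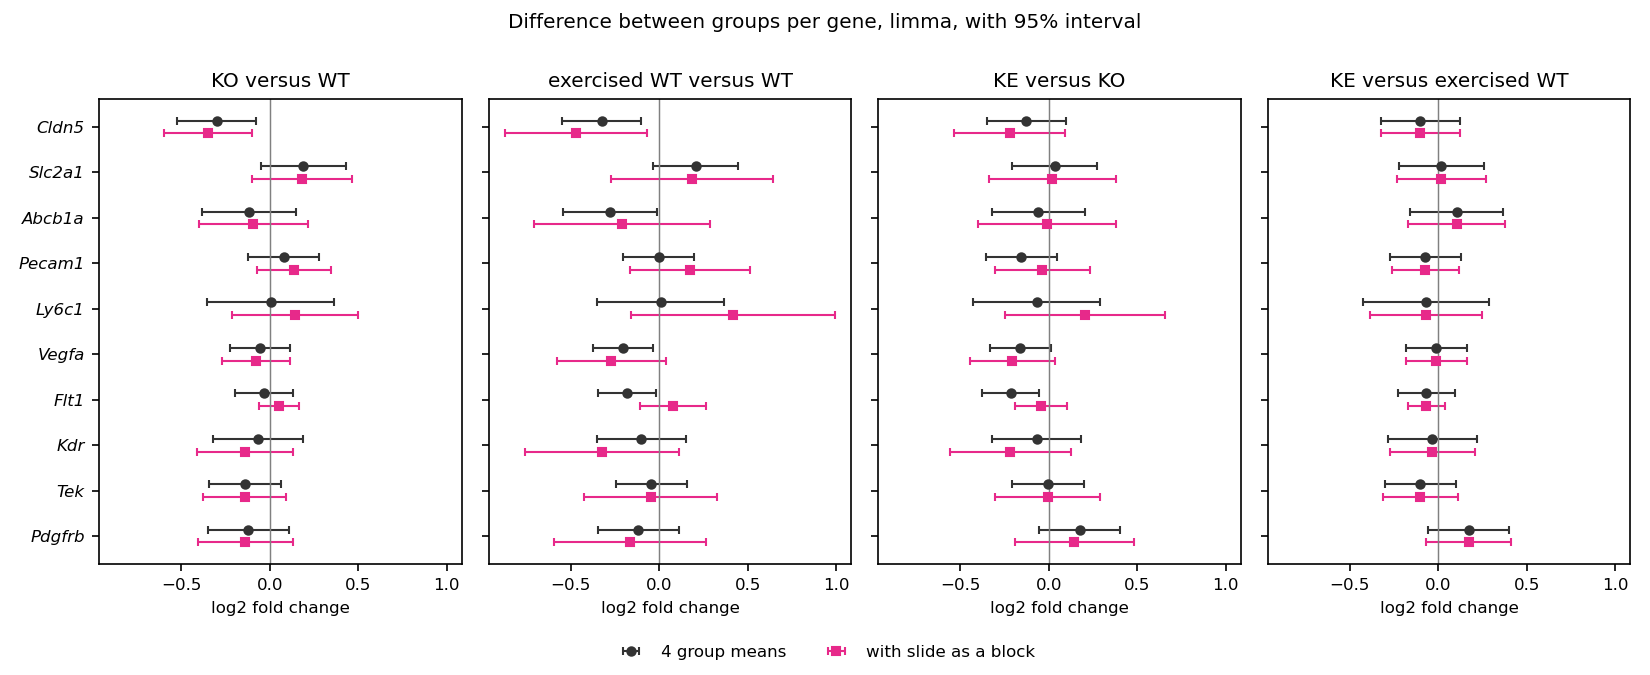
Log2 fold change (x axis) of the representative probe of each gene (rows) in 4 comparisons, with its 95% interval, from the fit of 4 group means (circles) and with slide as a block (squares). Cldn5 is the gene whose interval excludes 0 in both fits for KO and for exercised WT against WT, and Flt1 is the gene whose exercised WT and KE differences move to near 0 with the block.

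Other genes of the vessel wall were examined in lists. Of 27 other endothelial markers, 21 genes of barrier junctions and transport, 27 tested angiogenic ligands and receptors of 33, 15 tested pericyte and smooth muscle genes of 16 and 18 hypoxia response genes, 0 had an adjusted p under 0.05 in any comparison (limma). Between KO and WT the other endothelial markers had a median log2 difference of -0.02, with 1 at an unadjusted p under 0.05, beside 5.47% of all tested probes (Slco1c1, a thyroid hormone and organic anion transporter, at -0.18). Under the slide block they had 2 such genes, both lower, Tie1 at -0.40 and Egfl7 at -0.14, beside 5.48% of all tested probes. Neither passed the adjustment, and Slco1c1 was no longer among them. The barrier list had a median of 0.00 in that comparison and 3 such genes, all lower: the amino acid transporter Slc38a5 at -0.44, the transferrin receptor Tfrc at -0.30 and the organic anion transporter Slco1a4 at -0.28 (limma, adjusted p of 0.846 each). Under the slide block the barrier list had 2 lower, Slc38a5 and Slco1a4, and 1 higher, the lipid transporter Mfsd2a at 0.26, beside 5.48% of all tested probes, and Tfrc at -0.26 was no longer among them. These names, like those that follow, were chosen after their values were seen. The junction genes Ocln, Tjp1 and F11r, whose proteins lie in the same junctions as claudin-5, had log2 differences of -0.06, 0.06 and 0.05 between KO and WT (limma, adjusted p of 0.903, 0.855 and 0.899).

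Slc38a5 was the barrier gene with the lowest value in both KO and exercised WT against WT, at -0.44 and -0.59 (limma, adjusted p of 0.846 and 0.0933), and KE lay 0.38 above exercised WT. The value of -0.59 compares arrays that lay on different slides. Slc7a5, the large neutral amino acid transporter, had 0.58 for exercised WT and 0.53 for KE against WT, which became 0.027 and -0.022 with slide as a block. In the angiogenic list, the placental growth factor gene Pgf, which encodes a ligand of VEGFR1, had -0.38 for exercised WT and -0.34 for KE against WT (limma, adjusted p of 0.0933 and 0.0622), and Angpt2, whose product opposes TIE2 signalling, had -0.38 and -0.37 (limma, adjusted p of 0.0933 and 0.0622). With slide as a block those of Pgf were -0.26 and -0.21, and those of Angpt2 -0.16 and -0.16. Adm, a hypoxia-induced vasodilator peptide, had -0.80 for KE against KO, which was -0.29 with the block.

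In KE against KO, 9 of 27 angiogenic genes were lower and 1 higher at an unadjusted p under 0.05 (limma), beside 13% of all tested probes lower and 8.1% higher, and with slide as a block 2 were lower and 1 higher, beside 4.11% lower and 4.94% higher. The hypoxia response list, which holds targets of the oxygen-sensing factor HIF that also acts on Vegfa, had 5 of 18 lower and 0 higher in that comparison, and 3 lower with the block. The median of the hypoxia list was -0.13, and -0.09 with the block. Pericyte and smooth muscle genes had a median of 0.00 in KE against KO, while Pdgfrb itself had 0.17. These counts describe the lists, and no list was tested as a set.

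**Figure D5:**
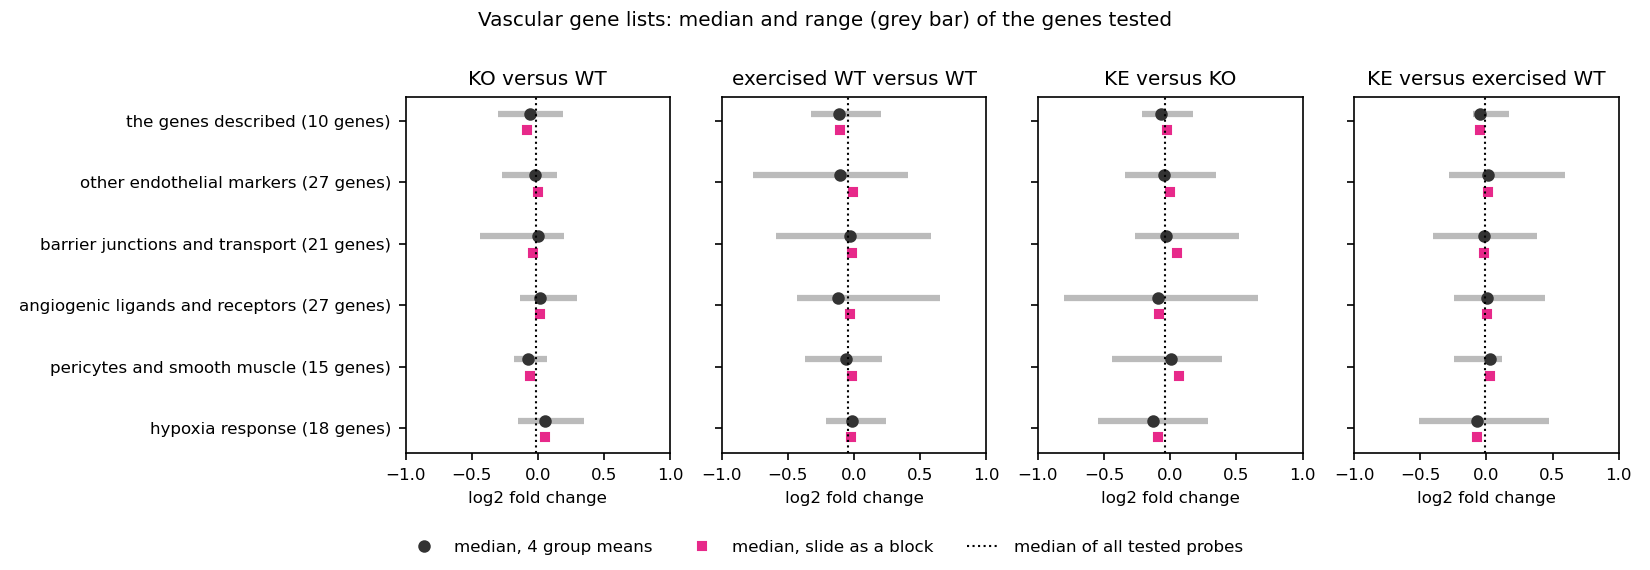
Median log2 fold change (x axis) of the 10 genes and of 5 other vascular lists (rows) in 4 comparisons, from the fit of 4 group means (circles, with the range of the genes as a grey bar) and with slide as a block (squares); the dotted line is the median of all tested probes. All circles lie between -0.13 and 0.06, and all squares between -0.11 and 0.07.

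Markers of other tissue next to the hypothalamus varied between mice. Summed signal of 8 meningeal fibroblast genes ran from 5527 to 11790 over the KO arrays, with KO replicate 2 the highest of all 12 arrays, and from 6488 to 7820 in WT, 6703 to 8409 in exercised WT and 5781 to 8683 in KE, all 8 being well above background in every group. KO replicate 2 was also the array with the highest Ly6c1, Slc2a1 and Flt1 and the lowest Kdr and Tek signal. Anterior pituitary genes summed to 186 to 246 in WT and reached 3145 in a KO mouse, with highest values of 1916 for exercised WT and 2131 for KE, and with 2 of 5 well above background in each group. The part of either tissue in the values above was not tested.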

How the data were processed

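Per the labels, total RNA was labelled with Cy3 and read with Agilent Feature Extraction 10.7.1.1. The authors deposited the scanner output, in which each value is the intensity of a spot with background subtracted, and a table of log2 values quantile-normalized over the 12 arrays. The authors' comparison tables hold fold changes and p-values and were not used, nor were 24 further columns of values per sample.

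Processed signals of non-control, non-outlier spots were log2-transformed, averaged per probe and quantile-normalized. Testing required detection (the scanner's well-above-background call) in each of the 3 mice of some group, which 35230 of 56605 probes met. A limma model (version 3.58.1, R 4.3.3) of 4 group means used all 12 arrays, and p-values were adjusted over all tested probes by the Benjamini-Hochberg method. The fit of group means was tested on simulated data with independent noise, with changes in KO only and without a slide effect. The fit with slide as a block was not tested in this way. Slide was added as a block, and other alternatives were the scaling, background correction, detection filter, the methods' unpaired t-test, outlier spots, averaging probes of a gene, and leaving out each array. Probe sequences and positions (mm9) are those of the authors' table, and only the middle 30 of 60 bases are printed. The number of arrays limits the precision. Intervals are 95% intervals.

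All 10 genes were named with all their probes, and from the other lists at most the 2 highest and 2 lowest genes past the test used were to be named. Slco1a4, Mfsd2a, Ocln, Tjp1, F11r and other list genes outside that rule were added after their values were seen. The members and lists were chosen with earlier results of these data known. Of the listed genes, Vegfd, Gpr124 and Hbb-bs had no probe under that symbol.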

Additional observations from a re-analysis of the deposited data

How the results depend on the processing

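The count of probes with an adjusted p under 0.05 was 0 in all 6 comparisons as reported, and it rose above 0 under 4 settings. With normexp background correction it was 1 for KE against WT (Cldn5, limma, adjusted p = 0.0473), where 4.57% of all probes were called. With the methods' t-test it was 1 for exercised WT against WT (Cldn5) and 2 for KE against WT (Flt1 and Vegfa), where 4.6% and 14% of all probes were called. With only the groups compared in the fit it was 1 for exercised WT against WT (Cldn5) and 3 for KE against WT (Cldn5, Flt1 and Vegfa), where 8.35% and 17.6% were called. Leaving out each array gave 0 to 2 for KE against KO, 0 to 1 for exercised WT against WT and 0 to 3 for KE against WT, always by leaving out KO replicate 3, the KO array on slide 2, where 24.4%, 18% and 23.2% of all probes were called. The probes were Flt1 in all 3 comparisons, with Vegfa 8.0 kb away for KE against KO and against WT and Cldn5 for KE against WT. With slide as a block all counts were 0. The cause of these calls was not tested.

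The median of the 10 genes for KE against WT, -0.14 as reported, was -0.049 with slide as a block, and that for exercised WT against WT, -0.11 as reported, ran from -0.17 to -0.044 when single arrays were left out. The other 136 medians moved by less than the SD of 0.06 between arrays of a group. No setting took a probe past the study's fold criterion. Of the log2 differences of single genes, 12 became called, 29 moved by more than the SD of the gene within groups without a call, and 1349 did neither. Deviations from the group mean had correlations of -0.19 to 0.24 between samples of the same replicate number. The labels do not say that these numbers mark pairs, and they do not all follow the numbers in the sample descriptions. Pairing by litter or animal could therefore not be checked. With a replicate block the counts stayed at 0 in all 6 comparisons and the medians were -0.06, -0.07, -0.11, -0.05, -0.14 and 0.04.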
